A study of Mus musculus with 10 samples.

Results

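The collagen gene family was followed in RNA-seq data of the light-damaged mouse retina. Its members were the protein-coding genes of the deposited expression table whose symbol has the form Col, a type number, the letter a and a chain number, without regard to their values, which gave 44 of the 54532 genes (22046 of them protein-coding). Expression was measured in 10 samples of neural retina from 2-month-old BALB/c mice, an inbred albino strain that is sensitive to light, and all mice spent 12 hr in the dark beforehand. The next 1 day was spent in normal light of 200 lux (NL, retinas 1, 4, 5, 7 and 8) or in high-intensity light of 15000 lux (LD, for light damage, retinas 1, 4, 6, 7 and 8), so that both groups share strain, age and dark adaptation. No label says whether a sample is 1 retina or a pool, or gives the sex of the mice, and p-values therefore describe the spread between these samples. Levels are given in FPKM, read fragments counted per kilobase of a gene and scaled by library size, a scale on which genes of different length can be compared.

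Collagens are secreted or membrane-bound proteins in which 3 chains wind into a triple helix, and each gene encodes 1 chain. The chains are grouped by what the assembled molecules build. Fibril-forming collagens make the ropes of connective tissue and vitreous, and fibril-associated collagens decorate those ropes. Type IV chains form the sheet-like network of basement membranes, which in the retina means the inner limiting membrane at the vitreous face and the sheaths of the blood vessels. Other classes form hexagonal networks, beaded filaments, anchoring fibrils, the multiplexins (collagens with heparan or chondroitin sulfate chains whose C-terminal fragments include endostatin), or span the plasma membrane.

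After LD, 5 collagen genes rose and 4 fell by more than 2-fold at a limma adjusted p under 0.01. *Col4a1*, *Col4a6*, *Col6a4*, *Col16a1* and *Col25a1* were higher, and *Col2a1*, *Col4a3*, *Col9a1* and *Col19a1* were lower. Both groups of genes cut across the classes. A gene was called when its change exceeded 2-fold and limma on log2(FPKM + 0.1) gave a Benjamini-Hochberg adjusted p under 0.01. The adjustment ran over all 24508 genes that reached 0.1 FPKM in 5 or more of the 10 samples, and 41 of the 44 collagen genes passed that filter. The 5 called higher are 12.2% of the 41, against 4.13% of all genes tested, and the 4 called lower are 9.76%, against 2.37%. Of the 15464 protein-coding genes tested, 5.64% were called higher and 1.86% lower. At an adjusted p under 0.05 with no minimum fold, 8 collagen genes were higher (19.5%, against 14.5% of all genes) and 5 lower (12.2%, against 13.4%), which is close to the background. The 5 NL and 5 LD values did not overlap for 7 collagen genes with higher LD values (17.1%, against 11.8% of all genes) and for 5 with lower ones (12.2%, against 10.6%). The median log2 fold change was 0.17 over the 41 collagen genes and -0.01 over all genes tested, and 30 collagen genes had a positive and 11 a negative sign.

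**Figure D1:**
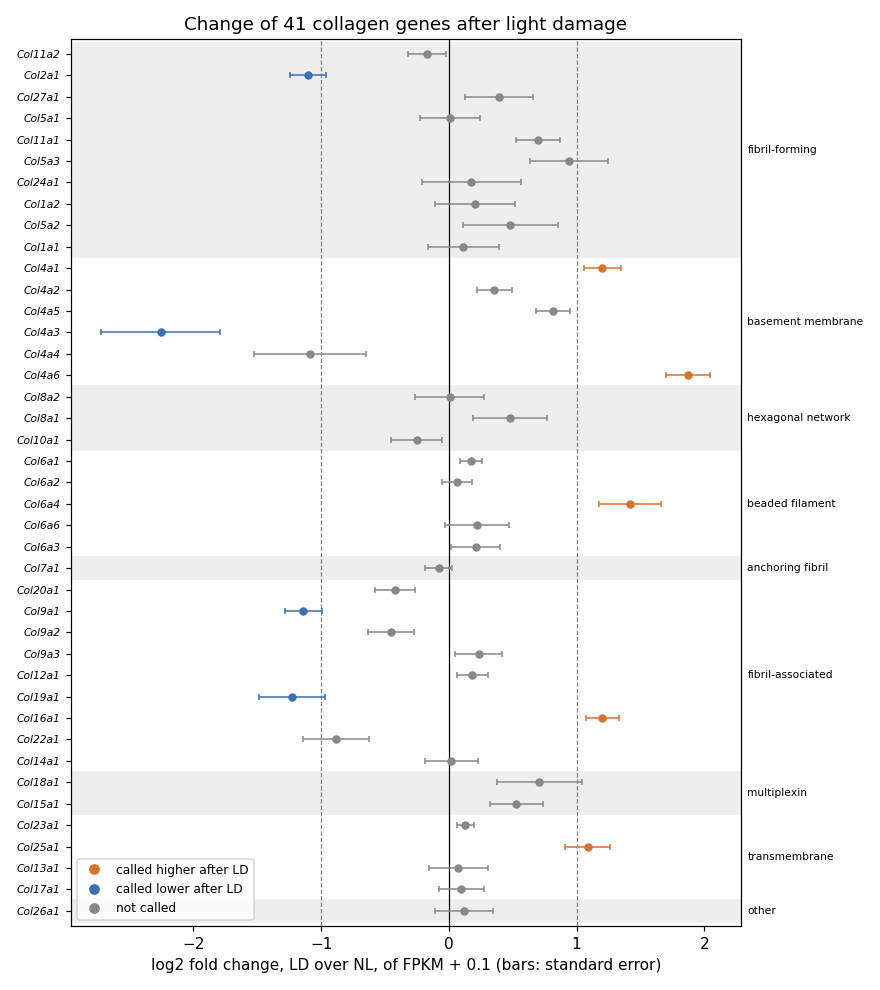
Log2 fold change (LD over NL, of FPKM + 0.1) of the 41 collagen genes tested, by class, with the standard error as bars and broken lines at a 2-fold change. The points of the 5 genes called higher lie between 1.09 and 1.87 and those of the 4 called lower between -2.26 and -1.10. Of the other points only that of *Col4a4*, at -1.09, lies past a broken line, though the bars of *Col5a3*, *Col18a1* and *Col22a1* also cross one.

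Depth was 21343389 to 26832535 reads in the NL and 18965090 to 23378090 reads in the LD samples, as recovered from the FPKM values. Within a group, 3 pairs of samples were much closer to each other than the rest, with a chi-square per gene of 2.65 (LD-4 and LD-6), 2.87 (NL-5 and NL-7) and 3.65 (LD-1 and LD-7), where the other pairs began at 12.2. These pairs still differed by more than sampling noise and were counted as separate samples, as labelled. The labels do not say whether such a pair came from 1 mouse, in which case n would be smaller than 5 and the p-values too small. With each pair averaged to 1 sample, 3 collagen genes were called higher and 2 lower. NL-1 and NL-8 were not a close pair by chi-square (12.8) and were singled out after the values were seen. Both exceeded the other 3 NL samples for 17 of the 41 collagen genes (41.5%), against 16.3% of all genes tested. Both lay under those 3 for 5 collagen genes (12.2%), against 14.9% of all genes. Summed connective tissue markers were 8.03 and 8.19 FPKM in NL-1 and NL-8, against 2.19 to 2.99 in the other NL samples and 2.20 to 3.89 after LD, and summed pigment epithelium markers were 93.6 and 152, against 52.9 to 72.3 and 60.6 to 109. LD-4 and LD-6 exceeded the other 3 LD samples for 15 of the 41 collagen genes (36.6%), against 20% of all genes. They lay under those 3 for 4 collagen genes (9.76%), against 22.3% of all genes. *Xist* was above 1 FPKM in NL-4, NL-8, LD-4 and LD-6 and in no other sample. Within LD this is the same split as that of LD-4 and LD-6 from the other LD samples, so these cannot be told apart. The relation of *Xist* to the differences within a group was not tested. The rod genes that identify the tissue were present in every sample, and all 8 rod markers were called lower, their sum being 8786 to 10747 FPKM in NL and 1349 to 2662 FPKM in LD. In bulk tissue, fewer cells of a type and less RNA per cell cannot be told apart.

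Collagen mRNAs were of low to moderate abundance. In at least 1 group, 29 of the 44 genes had a mean of 1 FPKM or more. The highest level was that of *Col6a1*, the alpha1 chain of the beaded-filament collagen VI, at 26.3 ± 3.29 FPKM in NL and 29.5 ± 2.14 in LD (mean ± SD, n = 5, as for all levels below). *Col23a1*, a transmembrane collagen, followed at 19.1 ± 1.23 and 20.9 ± 1.76. Next came *Col20a1* in NL, at 13.7 ± 2.77, and *Col4a1* in LD, at 20.4 ± 4.22, and *Col4a1* and *Col23a1* did not differ beyond their spread after LD. Chains of the tissue collagens I and III were scarce, with *Col1a1* at 0.234 ± 0.095 and 0.266 ± 0.126, *Col1a2* at 0.865 ± 0.439 and 0.986 ± 0.328, and *Col3a1* under the filter. The summed FPKM of the family was 167 ± 15.2 in NL and 181 ± 8.90 in LD. By group means, type IV chains made up 20.3% of the sum in NL and 25.2% in LD, and fibril-associated chains 22.1% and 15.3%. The summed FPKM of both classes overlapped between the groups. Type IV chains summed to 28.8 to 38.7 in NL and 36.6 to 50.8 in LD, and fibril-associated chains to 29.4 to 40.3 and 25.1 to 33.2.

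**Figure D2:**
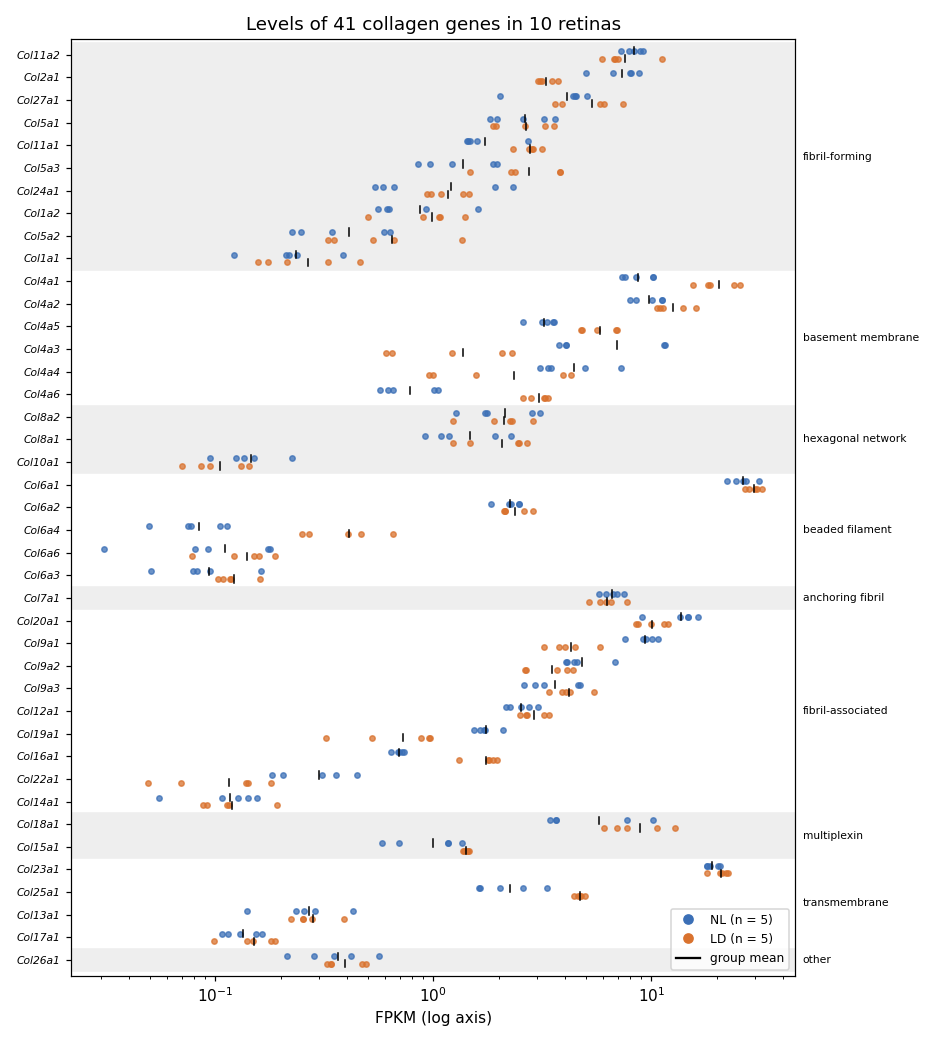
FPKM (log axis) of the 41 tested collagen genes in the 5 NL (blue) and 5 LD (orange) samples, by class, with the group means as black ticks. *Col6a1* and *Col23a1* head the scale with overlapping groups, while the points of *Col4a1*, *Col4a6*, *Col6a4*, *Col16a1* and *Col25a1* separate to the right after LD and those of *Col2a1*, *Col4a3*, *Col9a1* and *Col19a1* to the left.

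Of the 6 basement membrane genes, 2 were called higher and 1 lower, against 4.13% and 2.37% of all genes tested. The classes hold too few genes for their counts to be set apart from these shares. The 6 type IV genes lie as 3 pairs whose members start next to each other and are read in opposite directions, and their products join into heterotrimers of the chains alpha1 and alpha2, alpha3 to alpha5, or alpha5 and alpha6. In GRCm38, *Col4a1* (chr8:11198423-11312826, minus strand) and *Col4a2* (chr8:11312805-11449287, plus strand) overlap by 22 bases at their starts. *Col4a4* (chr1:82448423-82586849, minus strand) and *Col4a3* (chr1:82586921-82722059, plus strand) are 71 bases apart. *Col4a6* (chrX:141165403-141474076, minus strand) and *Col4a5* (chrX:141475385-141689234, plus strand) are 1308 bases apart. The bases just upstream of a start that lie outside every gene are shown for the pairs with a gap between them, because the members of each pair differ in the values that follow (RefSeq, GRCm38.p6, each read on the strand of its gene). The whole gap of the *Col4a3* and *Col4a4* pair is shown on the strand of *Col4a4* (chr1:82586850-82586920). The others are chrX:141474077-141474326 for *Col4a6* and chrX:141475169-141475384 for *Col4a5*. Capitals mark 4 short motifs wherever they occur on either strand. These are CCAAT, which the factor NF-Y binds, the motif GGGCGG that proteins of the Sp1 family bind, the promoter element TATAAA, and the letters TGANTCA (N is any base), to which AP-1 proteins bind.
Col4a4: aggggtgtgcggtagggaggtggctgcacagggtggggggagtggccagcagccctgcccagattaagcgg
Col4a6: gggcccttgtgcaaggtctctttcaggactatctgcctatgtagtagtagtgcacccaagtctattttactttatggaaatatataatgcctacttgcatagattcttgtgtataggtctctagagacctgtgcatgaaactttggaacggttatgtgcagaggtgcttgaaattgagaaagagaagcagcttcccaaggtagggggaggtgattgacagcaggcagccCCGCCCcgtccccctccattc
Col4a5: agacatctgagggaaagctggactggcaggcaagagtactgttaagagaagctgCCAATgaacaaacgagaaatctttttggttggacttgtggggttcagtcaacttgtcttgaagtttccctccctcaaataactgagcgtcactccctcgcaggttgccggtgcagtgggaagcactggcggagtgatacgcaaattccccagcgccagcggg
The *Col4a6* stretch holds a GC box on the opposite strand, the *Col4a5* stretch a CCAAT box, and the gap between *Col4a3* and *Col4a4* none of the 4 motifs.

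*Col4a1* encodes the alpha1 chain, the common chain of nearly all basement membranes. It was at 7.59, 8.46, 10.1, 10.1 and 7.30 FPKM in NL-1, 4, 5, 7 and 8, and at 25.6, 18.1, 18.6, 23.9 and 15.5 in LD-1, 4, 6, 7 and 8. Every LD value was above every NL value, and LD-1 and LD-7 were the highest. This was a log2 fold change of 1.20 (SE 0.15, limma adjusted p = 0.000175). *Col4a2*, its partner in the same trimer, was at 9.78 ± 1.48 FPKM in NL and 12.6 ± 2.31 in LD, with a log2 fold change of 0.36 (SE 0.13, limma adjusted p = 0.0758). The ratio of *Col4a1* to *Col4a2* FPKM was 0.840 to 0.916 in NL and 1.17 to 2.27 in LD, without overlap. This ratio and those that follow were chosen after the values were seen and carry no test. The reads were not stated to be assigned by strand, and the antisense transcript Gm15418, which overlaps the end of *Col4a1* by 6081 bases of its span, was also called higher (1.38 ± 0.386 to 4.06 ± 1.52 FPKM, log2 fold change 1.44, SE 0.30, limma adjusted p = 0.00456). It had 26 to 100 reads in LD, where *Col4a1* had 2579 to 4661.

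*Col4a6* encodes the alpha6 chain, which joins alpha5 in some basement membranes. In NL it was at 1.00, 0.620, 0.568, 0.650 and 1.05 FPKM, and in LD at 2.58, 3.24, 3.35, 3.23 and 2.81. The groups did not overlap, and NL-1 and NL-8 were the highest NL samples. The log2 fold change of 1.87 (SE 0.17, limma adjusted p = 2.74e-05) was the largest among collagen genes on this scale, but not without the pseudocount, since the ratio of the means was 3.91 for *Col4a6* and 4.86 for *Col6a4*. *Col4a5* was higher too, at 3.23 ± 0.405 FPKM in NL and 5.79 ± 1.08 in LD with no overlap (log2 fold change 0.81, SE 0.13, limma adjusted p = 0.00117), although its change stayed under 2-fold. The ratio of *Col4a6* to *Col4a5* was 0.181 to 0.293 in NL and 0.473 to 0.587 in LD.

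*Col4a3* and *Col4a4* encode the alpha3 and alpha4 chains, which join alpha5 in the mature network of specialised basement membranes. *Col4a3* was at 11.4, 3.77, 4.07, 4.07 and 11.6 FPKM in NL and at 2.30, 0.609, 0.646, 2.07 and 1.21 in LD. All LD values were under all NL values, NL-1 and NL-8 were far above the other 3 NL samples, and LD-4 and LD-6 were the lowest. Its log2 fold change of -2.26 (SE 0.46, limma adjusted p = 0.00429) was the largest decrease in the family. Without NL-1 and NL-8 the log2 fold change was -1.65 (adjusted p = 0.0265), and leaving out any 1 of NL-1, NL-8, LD-4, LD-6 or LD-8 raised the adjusted p to between 0.0104 and 0.0120, past the threshold. *Col4a4* was likewise highest in NL-1 and NL-8 and lowest in LD-4 and LD-6, at 4.98, 3.34, 3.46, 3.07 and 7.25 FPKM in NL and 4.26, 0.953, 0.994, 3.92 and 1.57 in LD, but LD-1 and LD-7 lay within the NL range. It did not pass the test (log2 fold change -1.09, SE 0.44, limma adjusted p = 0.0943). The ratio of *Col4a3* to *Col4a4* was 1.13 to 2.29 in NL and 0.528 to 0.774 in LD. C430014B12Rik, a transcript on the opposite strand of *Col4a3*, was called lower as well (0.592 ± 0.400 to 0.0795 ± 0.0711 FPKM, log2 fold change -1.84, SE 0.42, limma adjusted p = 0.00765), with 0 to 20 reads in LD where *Col4a3* had 123 to 560.

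**Figure D3:**
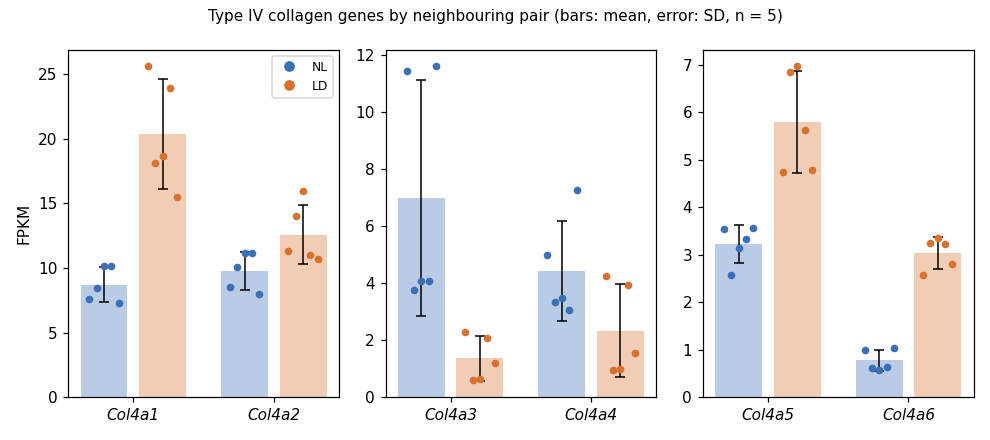
FPKM of the 6 type IV collagen genes in NL (blue) and LD (orange), 1 panel for each neighbouring gene pair, with bars at the mean, error bars of 1 SD and a point per sample (n = 5). *Col4a1* rose from 8.73 to 20.4 beside a smaller difference of *Col4a2*, *Col4a3* fell from 6.98 to 1.37, and *Col4a6* rose from 0.777 to 3.04.

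Cells that make basement membranes were followed by their markers. Summed endothelial markers were 40.5 to 50.05 FPKM in NL and 56.1 to 93.1 in LD, highest in LD-4 and LD-6, and 0 of 10 were called, while 2 of 10 (*Kdr* and *Egfl7*) were higher at an adjusted p under 0.05, which is near the 14.5% of all genes. Among the 10 endothelial markers the largest part of the sum came from *Kdr*, the VEGF receptor 2, which neurons and glia of the retina can also express. Summed mural cell markers were 10.1 to 15.1 FPKM in NL and 10.3 to 19.5 in LD, with 0 of 10 called and 2 of 10 higher at an adjusted p under 0.05 (*Notch3* and *Cspg4*), again near the 14.5% of all genes. Of 8 markers of Müller glia, the radial glia that adjoin the inner limiting membrane, *Vim* was called higher and *Glul* lower, against 4.13% and 2.37% of all genes. At an adjusted p under 0.05, 2 were higher (*Vim* and *Slc1a3*) and 2 lower (*Glul* and *Abca8a*), against 14.5% and 13.4%. Their sum was 1125 to 1350 FPKM in NL and 619 to 863 in LD, and *Glul*, the largest part of it in NL, went from a mean of 711 to 165 FPKM. Markers of lens fibres summed to at most 1.48 FPKM and corneal markers to at most 0.551, and *Kera* was listed at 0 in all samples. The part of any of these cells in the collagen values was not tested.

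Of the 10 fibril-forming genes tested, 1 was called, as lower, against 2.37% of all genes. *Col2a1* encodes the chain of collagen II, the main fibril of cartilage and of the vitreous. It was at 6.69, 7.96, 8.77, 8.08 and 4.99 FPKM in NL and at 3.51, 3.07, 3.75, 3.15 and 3.03 in LD. The groups did not overlap and the LD samples lay close together. *Col2a1* thus changed by -1.10 on the log2 scale (SE 0.14, limma adjusted p = 0.000234). *Col11a1*, a chain of the collagen XI that copolymerises with collagen II, went the other way, from 1.73 ± 0.552 to 2.79 ± 0.308 FPKM (log2 fold change 0.70, SE 0.17, limma adjusted p = 0.0120). NL-8, at 2.71 FPKM, lay inside the LD range of 2.31 to 3.16, and the other NL samples were at 1.43 to 1.59. *Col11a2* had the highest level of the class, at 8.30 ± 0.750 and 7.54 ± 2.08 FPKM (log2 fold change -0.17, SE 0.15, limma adjusted p = 0.453). *Col5a3*, a minor chain of collagen V, was at 1.37 ± 0.514 FPKM in NL and 2.75 ± 1.04 in LD (log2 fold change 0.94, SE 0.30, limma adjusted p = 0.0407), with LD-1 and LD-7 at 3.83 and 3.80 and LD-8 at 1.47, inside the NL range of 0.850 to 1.96. The other 6 tested, *Col1a1*, *Col1a2*, *Col5a1*, *Col5a2*, *Col24a1* and *Col27a1*, had adjusted p-values of 0.318 to 0.985. *Col3a1* was not tested, with 3 to 31 reads in NL and 6 to 30 in LD.

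Among the 9 fibril-associated genes, 1 was called higher and 2 lower, against 4.13% and 2.37% of all genes. *Col9a1* encodes the alpha1 chain of collagen IX, which coats collagen II fibrils. Its values were 9.48, 7.56, 10.1, 10.7 and 9.16 FPKM in NL and 3.78, 4.48, 5.82, 4.03 and 3.22 in LD, with no overlap. On the log2 scale the change was -1.14 (SE 0.15, limma adjusted p = 0.000239). *Col9a2* and *Col9a3* encode the remaining chains of the same molecule. *Col9a2* was at 4.80 ± 1.15 FPKM in NL and 3.49 ± 0.808 in LD (log2 fold change -0.45, SE 0.18, limma adjusted p = 0.0934), and *Col9a3* at 3.61 ± 0.988 and 4.20 ± 0.756 (log2 fold change 0.23, SE 0.18, limma adjusted p = 0.390). The ratio of *Col9a1* to *Col9a3* was 1.98 to 4.12 in NL and 0.824 to 1.12 in LD, while that of *Col9a1* to *Col9a2* overlapped between groups.

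*Col19a1* encodes a collagen of basement membrane zones that some neurons also make. It was at 1.73, 1.63, 1.70, 1.53 and 2.09 FPKM in NL and at 0.965, 0.322, 0.526, 0.880 and 0.952 in LD. LD-4 and LD-6 were the lowest, and the groups did not overlap. The log2 fold change was -1.23 (SE 0.26, limma adjusted p = 0.00478), but without any 1 of the 5 NL samples or LD-6 the adjusted p was 0.0103 to 0.0142 and the gene was no longer called. *Col9a1* (chr1:24177610-24252684, plus strand) and *Col19a1* (chr1:24261890-24587472, minus strand) are neighbours whose ends face each other across 9205 bases, so the starts of these genes, both lower after LD, lie far apart. *Col22a1*, a collagen of tissue junctions, was at 0.300 ± 0.109 FPKM in NL and 0.116 ± 0.0546 in LD without overlap (log2 fold change -0.89, SE 0.26, limma adjusted p = 0.0263).

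*Col16a1*, a collagen that lies beside fibrils and near basement membranes, rose. It was at 0.637, 0.718, 0.737, 0.691 and 0.695 FPKM in NL and at 1.79, 1.87, 1.95, 1.78 and 1.32 in LD. The NL samples were tightly grouped and LD-8 was the lowest of the LD samples, still above all NL values. On the log2 scale it changed by 1.20 (SE 0.13, limma adjusted p = 6.6e-05). *Col20a1* had the highest level of the class, at 13.7 ± 2.77 FPKM in NL and 10.1 ± 1.54 in LD, with overlapping groups (log2 fold change -0.42, SE 0.16, limma adjusted p = 0.0716). For *Col12a1* and *Col14a1* the adjusted p-values were 0.295 and 0.958. The bases outside other genes before the starts of the 3 called genes are shown so that those of the fallen *Col9a1* (chr1:24177360-24177609) and *Col19a1* (chr1:24587473-24587687) can be read beside those of the risen *Col16a1* (chr4:130047775-130047839), with the same motifs marked.
Col9a1: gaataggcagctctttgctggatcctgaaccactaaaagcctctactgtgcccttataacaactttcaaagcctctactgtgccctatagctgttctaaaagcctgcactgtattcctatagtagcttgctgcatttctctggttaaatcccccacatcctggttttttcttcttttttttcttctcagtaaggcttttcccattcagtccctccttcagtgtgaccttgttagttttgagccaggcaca
Col19a1: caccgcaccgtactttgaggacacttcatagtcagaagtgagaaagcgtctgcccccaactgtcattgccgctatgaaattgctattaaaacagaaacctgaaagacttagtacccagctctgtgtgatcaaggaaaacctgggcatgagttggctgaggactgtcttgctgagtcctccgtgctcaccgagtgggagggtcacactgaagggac
Col16a1: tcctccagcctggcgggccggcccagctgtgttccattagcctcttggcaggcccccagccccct
None of the 4 motifs occurs in these 3 stretches, but they differ in length, with 250 bases for *Col9a1*, 215 for *Col19a1* and 65 for *Col16a1*. Bases that lie inside a gene were left out of them, so a motif there would not show. RefSeq promoters were at hand for 35 of the 44 collagen genes (38 promoters). In the 250 bases upstream of the start, CCAAT occurred in 13 of these (34.2%, against 33.8% of 32851 promoters), GGGCGG in 22 (57.9%, against 32.7%), TATAAA in 5 (13.2%, against 12.4%) and TGANTCA in 1 (2.63%, against 6.75%), counting both strands. Of the 8 promoters of the 7 called genes with an entry, CCAAT was in 5, GGGCGG in 4, and TATAAA and TGANTCA in 0. These counts use the full 250 bases, also where they lie inside a gene, and so cannot be read off the stretches shown.

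Of the 5 beaded-filament genes tested, only *Col6a4* was called, as higher, against 4.13% of all genes. It encodes a chain that can take the place of the alpha3 chain in collagen VI. Its level was low, at 0.0494, 0.0773, 0.0751, 0.105 and 0.114 FPKM in NL (9 to 25 reads) and 0.250, 0.654, 0.467, 0.268 and 0.406 in LD (52 to 113 reads). The groups did not overlap, and LD-4 and LD-6 were the highest. The log2 fold change was 1.42 (SE 0.24, limma adjusted p = 0.00139), which the pseudocount of 0.1 makes smaller than the 4.86-fold ratio of the means. It was 1.40 with an adjusted p of 0.0108 without NL-1 and NL-8. *Col6a1*, the most abundant collagen mRNA, was at 22.3, 26.3, 24.4, 27.3 and 31.1 FPKM in NL and 29.9, 26.8, 28.1, 32.3 and 30.5 in LD, and the groups overlapped (log2 fold change 0.17, SE 0.09, limma adjusted p = 0.163). *Col6a2* was at 2.25 ± 0.252 and 2.36 ± 0.343 FPKM, so that *Col6a1* exceeded it by 10.7 to 12.6 times in NL and 11.3 to 14.4 times in LD. *Col6a3* was near 0.1 FPKM in both groups, at 0.0937 ± 0.0414 and 0.121 ± 0.0228, and *Col6a6* was at 0.111 ± 0.0633 and 0.139 ± 0.0414. *Col6a5* was not tested, with 0 to 6 reads in NL and 3 to 10 in LD.

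*Col25a1*, a neuronal transmembrane collagen, was the called gene among the 4 of its class, as higher, against 4.13% of all genes. It was at 2.58, 2.03, 1.64, 1.63 and 3.31 FPKM in NL and at 4.68, 4.96, 4.75, 4.63 and 4.44 in LD. The LD samples lay within a narrow range above the spread-out NL samples. The log2 fold change was 1.09 (SE 0.17, limma adjusted p = 0.00100), and it fell just under a 2-fold change without NL-5 or without NL-7 (0.99 in both). *Col23a1* had a log2 fold change of 0.13 (SE 0.07, limma adjusted p = 0.195) at its high level. *Col13a1*, found at neuromuscular junctions, and *Col17a1*, found in hemidesmosomes, were under 0.5 FPKM in every sample, with adjusted p-values of 0.852 and 0.731.

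The multiplexins *Col15a1* and *Col18a1* lie in vascular and epithelial basement membranes, and neither was called. *Col18a1*, the source of endostatin, was at 10.2, 3.66, 3.44, 3.64 and 7.74 FPKM in NL and at 6.93, 10.7, 12.8, 7.70 and 6.05 in LD. NL-1 and NL-8 lay inside the LD range and the other 3 NL samples below it (log2 fold change 0.71, SE 0.33, limma adjusted p = 0.146). Without NL-1 and NL-8 the log2 fold change was 1.22 (adjusted p = 0.00657), and *Col18a1* was then called higher. *Slc19a1*, read from the opposite strand across 8825 bases of the *Col18a1* span, was at 7.22 ± 0.499 FPKM in NL and 6.06 ± 0.796 in LD. *Col15a1* showed the inverse picture in those samples, at 0.582 and 0.696 FPKM in NL-1 and NL-8, 1.16 to 1.36 in the other NL samples and 1.37 to 1.45 in LD (log2 fold change 0.53, SE 0.21, limma adjusted p = 0.0873).

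Members of the remaining classes did not pass the test. *Col8a2* and *Col8a1*, the chains of the hexagonal network of collagen VIII, were at 2.13 ± 0.779 and 1.47 ± 0.584 FPKM in NL and 2.11 ± 0.600 and 2.06 ± 0.662 in LD, with adjusted p-values of 0.989 and 0.260. *Col10a1*, the hypertrophic cartilage collagen, had 5 to 15 reads per sample and lies within *Nt5dc1* on the opposite strand, so that its values are uncertain. *Col7a1*, which forms anchoring fibrils under epithelia, was at 6.62 ± 0.668 FPKM in NL and 6.29 ± 0.946 in LD (log2 fold change -0.08, SE 0.11, limma adjusted p = 0.630). *Col26a1* was at 0.365 ± 0.134 and 0.393 ± 0.0806 FPKM (limma adjusted p = 0.754). *Col28a1* was not tested, with 4 to 9 reads in NL and 3 to 21 in LD.

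**Figure D4:**
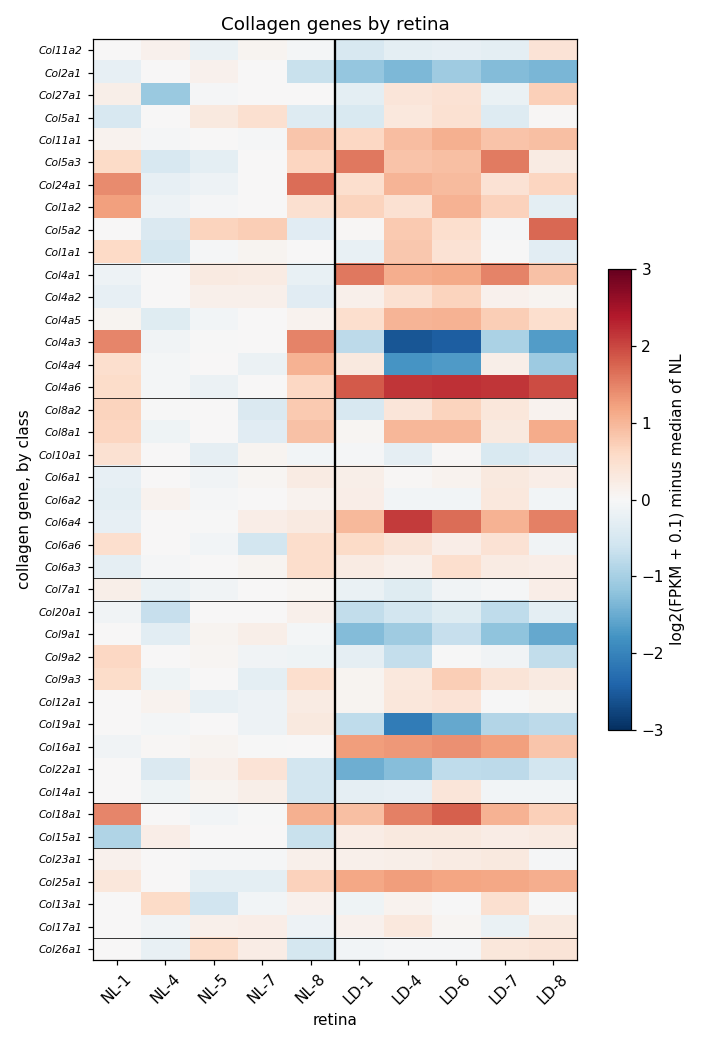
Log2(FPKM + 0.1) of the 41 tested collagen genes in each sample, minus the median of the 5 NL samples, from blue (lower) to red (higher). The colour scale runs to 3 on either side. *Col4a1*, *Col4a6*, *Col16a1* and *Col25a1* are red in all LD columns and *Col2a1*, *Col9a1* and *Col19a1* blue, while NL-1 and NL-8 share red cells for *Col4a3*, *Col18a1* and *Col24a1*.

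Genes that make, process, bind or accompany collagen were read from 4 lists. The lists were chosen with earlier results of these data known, so their shares describe the genes listed and carry no test. Of the 51 genes tested in all of them together, 8 were called higher (15.7%, against 4.13% of all genes tested) and 0 lower (against 2.37%). At an adjusted p under 0.05 from limma, 25 were higher (49.0%, against 14.5% of all genes) and 2 lower (3.92%, against 13.4%). Of 18 genes for the modification and folding of chains in the endoplasmic reticulum, 2 were called higher, against the 4.13% of all genes. *Serpinh1*, the collagen chaperone HSP47, was at 4.90, 4.57, 4.13, 4.03 and 4.24 FPKM in NL and 6.55, 13.3, 12.7, 6.36 and 10.2 in LD. Its groups did not overlap, and LD-1 and LD-7 were the lowest of the LD samples (log2 fold change 1.08, SE 0.21, limma adjusted p = 0.00277). *Fkbp10*, a prolyl isomerase needed for telopeptide hydroxylation, was at 1.49 ± 0.288 FPKM in NL and 4.22 ± 0.988 in LD (log2 fold change 1.43, SE 0.17, limma adjusted p = 0.000154). The most abundant of the list, *P4hb*, which forms the beta subunit of prolyl 4-hydroxylase and is also protein disulfide isomerase, was higher by little, at 46.6 ± 2.39 and 55.7 ± 1.47 FPKM (log2 fold change 0.26, SE 0.04, limma adjusted p = 0.00144). At an adjusted p under 0.05, 8 of the 18 were higher (against 14.5% of all genes) and 1, the prolyl hydroxylase subunit gene *P4ha1*, was lower.

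Of 13 genes for processing outside the cell and cross-linking, 10 were tested and 3 called higher, against 4.13% of all genes. *Bmp1*, the procollagen C-proteinase, was at 2.67, 2.53, 1.99, 2.11 and 2.67 FPKM in NL and 8.59, 10.9, 11.1, 9.45 and 9.72 in LD. The groups were far apart, with a log2 fold change of 2.02 (SE 0.10, limma adjusted p = 4.33e-07). *Pcolce*, the enhancer of that proteinase, was at 6.15, 3.67, 3.62, 3.72 and 6.43 FPKM in NL and 33.5, 16.8, 17.6, 26.8 and 12.6 in LD (log2 fold change 2.12, SE 0.28, limma adjusted p = 0.000250). It was highest in LD-1 and LD-7, the samples with the highest *Col4a1*. These samples are a close pair by chi-square, and whether *Pcolce* and *Col4a1* vary together was not tested. *Loxl4*, a lysyl oxidase of the cross-linking family, was at 0.240 ± 0.0359 FPKM in NL and 1.35 ± 0.131 in LD (log2 fold change 2.09, SE 0.14, limma adjusted p = 2.86e-06). At an adjusted p under 0.05, 6 of the 10 were higher (against 14.5% of all genes), and 1, the procollagen N-proteinase gene *Adamts3*, was lower (11.7 ± 0.969 to 7.50 ± 2.50 FPKM, log2 fold change -0.70, SE 0.19, limma adjusted p = 0.0209).

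Of 10 collagen receptor genes, 8 were tested and 0 were called, while 5 were higher at an adjusted p under 0.05 from limma, a threshold that 14.5% of all genes passed in that direction. *Ddr1*, a receptor tyrosine kinase for collagen and the most abundant of them, was at 29.1 ± 1.38 FPKM in NL and 45.3 ± 12.0 in LD (log2 fold change 0.60, SE 0.16, limma adjusted p = 0.0153). *Itgb1*, the beta1 subunit of the collagen-binding integrins, was at 12.0 ± 0.796 and 19.9 ± 2.39 (log2 fold change 0.71, SE 0.08, limma adjusted p = 0.000110).

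Of 15 partners of type IV collagen in basement membranes, 3 were called higher and 0 lower, against 4.13% and 2.37% of all genes. *Agrn*, the heparan sulfate proteoglycan agrin, was at 27.8, 23.5, 22.9, 23.9 and 27.5 FPKM in NL and 168, 69.9, 77.9, 175 and 69.4 in LD. LD-1 and LD-7 were far above the other LD samples, and all LD values exceeded all NL values (log2 fold change 2.02, SE 0.28, limma adjusted p = 0.000337). *Lama5*, the laminin alpha5 chain, was at 2.53 ± 0.0701 and 5.45 ± 0.583 FPKM (log2 fold change 1.07, SE 0.08, limma adjusted p = 5.14e-06). *Hspg2*, perlecan, was at 0.709 ± 0.0454 and 1.72 ± 0.397 (log2 fold change 1.14, SE 0.16, limma adjusted p = 0.000386). *Sparc*, a collagen-binding matricellular protein, had the highest level of the list in NL, at 50.9 ± 11.3 FPKM in NL and 86.0 ± 13.2 in LD (log2 fold change 0.77, SE 0.15, limma adjusted p = 0.00303). At an adjusted p under 0.05 from limma, 6 of the 15 were higher (against 14.5% of all genes) and 0 lower (against 13.4%). They include the laminin chain genes *Lamc1*, at 3.49 ± 0.499 and 5.57 ± 0.681 FPKM (log2 fold change 0.66, SE 0.12, limma adjusted p = 0.00169), and *Lamb2*, at 3.71 ± 0.424 and 5.80 ± 1.33 (log2 fold change 0.61, SE 0.15, limma adjusted p = 0.00998). By contrast, *Lama3* and *Lamc3* had adjusted p-values of 0.920 and 0.982.

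**Figure D5:**
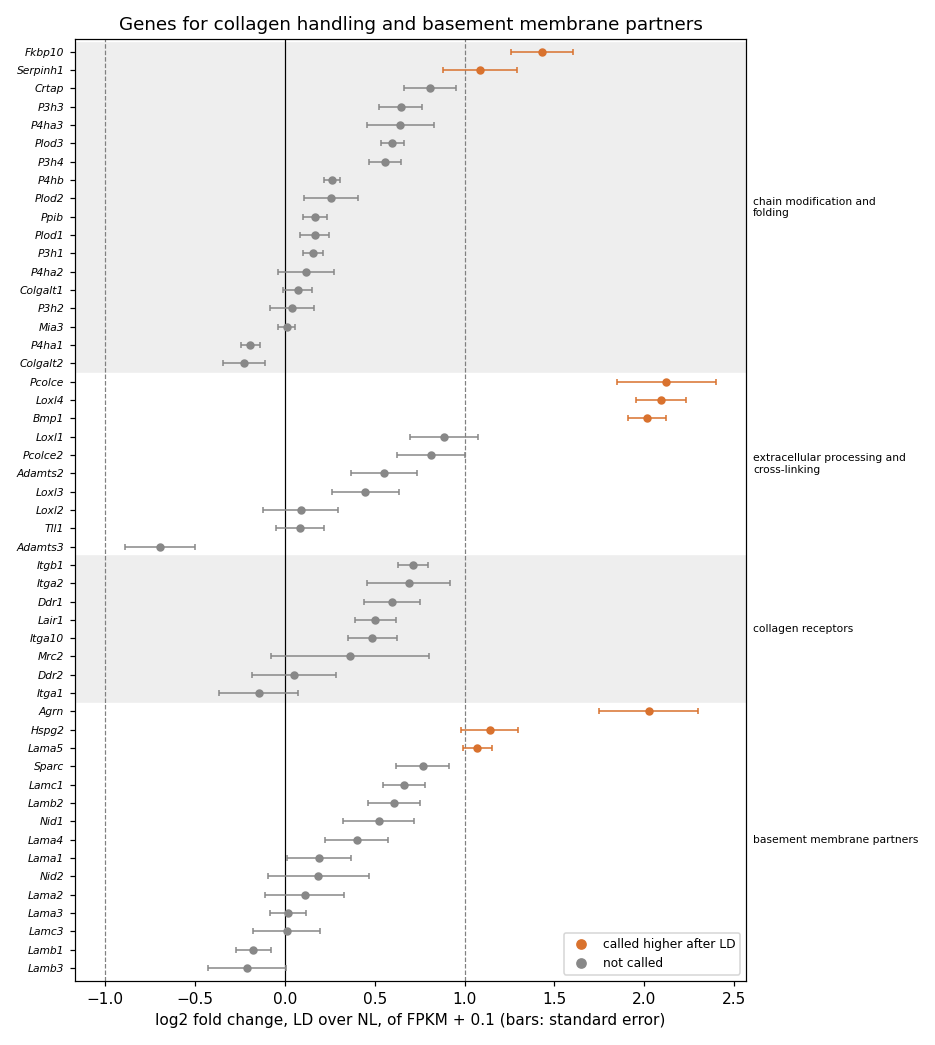
Log2 fold change (LD over NL, of FPKM + 0.1) with its standard error for the tested genes that modify, process, bind or accompany collagen, by list, with broken lines at a 2-fold change. The 8 genes called higher (orange) run from 1.07 for *Lama5* to 2.12 for *Pcolce*, and no gene lies beyond a 2-fold decrease.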

How the data were processed

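RNA was extracted from 10 retina samples with TRIzol, TruSeq libraries were made, and a company sequenced paired reads and normalized the data. The submitters' processing notes name Bowtie2 2.0.6, TopHat2 2.0.9 and the build mm8, but the positions of all 44 collagen genes in the table equal those of GRCm38 (GENCODE M21), which are given here. The counting program and its use of strand are not given in the sources used here. The authors deposited FPKM values. Multiplied by gene length they were whole multiples of 1 read (within 0.01) for 100% of values, so reads were recovered. The library sizes behind them were the summed reads times 0.951 to 0.968 in NL and 1.04 to 1.07 in LD.

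LD was compared with NL by limma 3.58.1 (R 4.3.3, intensity trend, no block) on log2(FPKM + 0.1), which understates changes of low genes. Columns were read with pandas 2.3.3 and plots drawn with matplotlib 3.10.9. The thresholds follow the paper, which names no tool. The model was tested on simulated data. Named are members called or with an adjusted p under 0.05, the most abundant of each class, those under the filter, and called or most abundant pathway genes, with further members for contrast, chosen after their values were seen. Members were taken by symbol alone, but the family, its classes and the lists were chosen with earlier results of these data known. Recomputation under 13 other settings changed the pseudocount, filter, trend, scaling, test, threshold, replicate block and samples, and 2 more were added after the values were seen. Some genes are not reported here.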

Additional observations from a re-analysis of the deposited data

Results flagged for a closer look

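In 8 of the 88 groups of 5 samples examined for the 44 collagen genes, 1 sample stood far from the other 4 (Dixon's criterion for the gap over the range), where chance gives about 1 in 20 groups, or 4.4. *Col11a2* reached 11.2 FPKM in LD-8, where the other LD samples were at 5.93 to 7.05. *Col16a1*, called higher, was lowest in LD-8 at 1.32 FPKM, against 1.78 to 1.95. LD-6 was the high sample for *Col6a3* (0.161 FPKM, others 0.103 to 0.117) and *Col14a1* (0.191, others 0.0877 to 0.115). NL-1 was the high sample for *Col9a2* (6.83 FPKM, others 4.07 to 4.58) and for *Col3a1* (0.148, others 0.0151 to 0.0384). NL-8 was high for *Col11a1* at 2.71 FPKM, against 1.43 to 1.59, and NL-4 was low for *Col27a1* at 2.02 FPKM, against 4.39 to 5.06. No cause was tested.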

How the results depend on the processing

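The same 9 collagen genes were called without a filter, without the intensity trend, with a pseudocount of 0.01, after quantile normalization, by limma-voom on the recovered reads and with *Xist* above 1 FPKM as a covariate. A pseudocount of 1 left 2 called higher and 1 lower (*Col4a1*, *Col4a6* and *Col4a3*), averaging the closest pairs 3 and 2 (without *Col4a3*, *Col6a4*, *Col19a1* and *Col25a1*), and leaving out NL-1 and NL-8 5 and 2, with *Col4a3*, *Col6a4* and *Col19a1* lost and *Col18a1* gained. A filter at 1 FPKM took *Col6a4* out of the test. An adjusted p under 0.05 with no minimum fold gave 8 and 5. Leaving out 1 sample at a time gave 4 to 5 higher and 2 to 4 lower. Without the library factor, the median of all genes moved from -0.01 to 0.11, and *Col2a1*, at -0.97, was no longer called. For changes near 0 the sign depended on the setting, and the cause was not tested. *Col8a2* (0.01) was at -0.095 with pairs averaged, -0.025 by limma-voom, -0.033 after quantile normalization, -0.16 in the same 8 samples with or without the block, and -0.15 to 0.18 without 1 sample. *Col7a1* (-0.08) was at 0.0073 without NL-1 and NL-8 and 0.051 without the library factor. *Col26a1* (0.12) was at -0.059 without NL-1 and NL-8 and -0.015 to 0.25 without 1 sample.

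The replicate numbers 1, 4, 7 and 8 are shared by both groups, but the deviations of same-numbered samples correlated at only -0.09 to 0.07, so they were not taken as pairs. With the replicate number as a block over these 8 samples, 2 collagen genes were called higher (*Col4a1* and *Col4a6*) and 2 lower (*Col2a1* and *Col9a1*), and without the block in the same samples 3 and 2. Over all genes, the block gave 550 higher and 258 lower, and for the pathway lists 4 higher.

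Over all genes, 1013 were called higher and 582 lower. A filter at 1 FPKM gave 664 higher, a pseudocount of 1 gave 504 and 312, averaged pairs gave 366 lower, and no block over 8 samples 369 lower. For the pathway lists, 8 higher and 0 lower became 4 higher with a pseudocount of 1. At an adjusted p under 0.05 with no minimum fold, counts were 3543 and 3275 for all genes and 25 and 2 for the lists. Depth limits what can be said of scarce genes such as *Col10a1*, with 5 to 15 reads.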
